A study of Mus musculus with 6 samples.

Results

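The genes described here encode nuclear subunits of the 5 oxidative phosphorylation complexes and assembly factors of complex I. They were taken by symbol, as protein-coding genes of mm10 on chromosomes 1 to 19 and X whose names begin with Nduf, Uqcr, Cox4 to Cox8 or Atp5, together with Sdha, Sdhb, Sdhc and Sdhd. Of 21631 protein-coding genes on those chromosomes, 96 were members: 41 of complex I, 8 assembly factors of complex I (the Ndufaf genes), 4 of complex II, 8 of complex III, 18 of complex IV and 17 of complex V. Ndufa4 and Ndufa4l2 were placed with complex I by name, although the protein of Ndufa4 is now known as a subunit of complex IV. Cyc1 of complex III falls outside these names and was counted with the assembly factors and electron carriers among the related pathways below. The measurement was the presence and length of called peaks of H3K4me3, the trimethylation of histone H3 that gathers around gene starts in use or held ready. A promoter counted as marked where at least 1 bp of a peak fell in the 1 kb either side of a start site. For 18 members, among them Ndufs1, Sdhc, Uqcrb, Uqcrc2, Cox4i1, Cox4i2, Cox6a2, Cox8c and Atp5a1, no start site was listed, and the end of the gene with peaks in more libraries stood in for it.

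The cells were Lgr5-positive progenitors of the cochlea, which are supporting cells of the sensory epithelium, from mice of postnatal day 0 to 3. All groups came from Lgr5-EGFP-creERT2 mice of either sex on the C57BL/6 strain, whose Lgr5 locus drives a green fluorescent protein and an inducible Cre. Their cochleae were cultured, and the dissociated cells were sorted on green fluorescence. One group had been treated with neomycin, an aminoglycoside antibiotic that kills hair cells, for 12 h, and the other was untreated. Each group had 2 libraries made with 1 antibody against H3K4me3, and 1 input library not analysed here. Nothing in the labels tells whether the 2 libraries of a group are separate cultures, so p-values measure only the spread between these libraries. The untreated lists carry H3K4me2 in their deposited names against H3K4me3 in the labels, which leaves the mark in them uncertain to that extent. A difference of mark, if there was one, cannot be told apart from the treatment in these lists.

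Oxidative phosphorylation moves electrons from NADH (at complex I) and succinate (at complex II) through ubiquinone to complex III, then through cytochrome c to complex IV, where oxygen is reduced. Complexes I, III and IV pump protons across the inner mitochondrial membrane, and complex V, the ATP synthase, uses the gradient to make ATP. Apart from complex II, each complex joins nuclear-encoded subunits to some encoded in the mitochondrial genome, and the nuclear genes are expressed in nearly all cells. Hair cells and supporting cells of the cochlea depend on mitochondria, and aminoglycosides are known to disturb mitochondrial function in hair cells.

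The lists held 14203 and 11545 peaks in neomycin replicates 1 and 2 and 15938 and 10520 in untreated replicates 1 and 2. They carry no read totals, so depth is unknown. Peaks were shorter in the neomycin lists, with a median of 70.0 and 142 bp, against 310.5 and 340 bp in the untreated lists, and the shortest peak was 48 and 110 bp against 187 and 234 bp. Strong peaks were also unequal: 747 and 283 peaks of the neomycin lists reached a -log10 q of 10, against 6279 and 2259 of the untreated lists. At least 9 of 10 markers of supporting and progenitor cells were marked in every library, and 9 of them, Lgr5 included, in all 4. Of 6 hair cell markers, 2 and 1 were marked in the neomycin libraries against 4 and 1 in the untreated libraries, and Atoh1 was marked in both untreated libraries alone. Of 6 mesenchyme markers, 0 and 0 were marked against 2 and 3, with Coch and Twist1 in the untreated libraries alone, and none of 6 macrophage and blood markers was marked in any library. Of 6 markers of neurons and glia, 1 and 2 were marked with neomycin and 4 and 1 in untreated cells. The part of these differences in the results on oxidative phosphorylation genes was not tested. In cells profiled in bulk, fewer cells carrying a mark and less of the mark per cell cannot be told apart.

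The promoter sequences of the members that differed between the groups are shown first, with a marked and an unmarked isoform of cytochrome oxidase subunit 8 and with 2 genes of the ATP synthase. Each runs from 250 bases before to 50 after the start site, 5′ to 3′ on the strand of the gene, from RefSeq's promoter table of GRCm38.p6, the assembly of mm10. Capitals mark matches on either strand to 4 motifs: GCGCATGCG for NRF1, CCGGAAG for the ETS family, which includes GABPA, AAGATGGCG for YY1 and GGGCGG for the Sp family. NRF1, GABPA and YY1 are known as regulators of nuclear genes of the respiratory chain. All 8 genes lie on the minus strand. Ndufa9 was marked with neomycin alone, and Ndufa4, Ndufc1 and Sdha in the untreated cells alone.
Ndufa9, chr6:126849095-126849394: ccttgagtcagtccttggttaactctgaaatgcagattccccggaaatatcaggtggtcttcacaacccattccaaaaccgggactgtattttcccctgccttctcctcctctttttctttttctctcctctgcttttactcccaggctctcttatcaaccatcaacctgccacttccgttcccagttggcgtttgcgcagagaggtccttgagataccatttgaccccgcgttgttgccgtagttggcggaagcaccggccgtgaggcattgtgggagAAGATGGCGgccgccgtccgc
Ndufa4, chr6:11907401-11907700: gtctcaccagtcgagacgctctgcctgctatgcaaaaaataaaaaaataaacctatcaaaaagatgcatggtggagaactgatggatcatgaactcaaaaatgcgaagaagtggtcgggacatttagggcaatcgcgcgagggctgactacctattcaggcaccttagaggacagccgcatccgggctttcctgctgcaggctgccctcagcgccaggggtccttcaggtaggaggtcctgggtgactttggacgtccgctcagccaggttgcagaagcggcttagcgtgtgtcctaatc
Ndufc1, chr3:51408906-51409205: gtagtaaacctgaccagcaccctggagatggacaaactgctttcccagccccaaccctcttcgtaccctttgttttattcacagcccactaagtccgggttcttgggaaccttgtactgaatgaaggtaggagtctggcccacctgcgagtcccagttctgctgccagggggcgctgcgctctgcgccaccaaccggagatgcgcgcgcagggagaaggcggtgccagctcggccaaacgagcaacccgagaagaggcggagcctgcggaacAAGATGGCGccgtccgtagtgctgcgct
Sdha, chr13:74350191-74350490: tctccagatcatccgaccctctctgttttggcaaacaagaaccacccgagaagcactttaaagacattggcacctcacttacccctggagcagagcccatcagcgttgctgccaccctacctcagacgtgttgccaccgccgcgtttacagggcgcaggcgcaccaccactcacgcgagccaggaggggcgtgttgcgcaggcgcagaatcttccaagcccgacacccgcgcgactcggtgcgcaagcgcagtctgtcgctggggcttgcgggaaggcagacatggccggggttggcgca
Cox8a, chr19:7217567-7217866: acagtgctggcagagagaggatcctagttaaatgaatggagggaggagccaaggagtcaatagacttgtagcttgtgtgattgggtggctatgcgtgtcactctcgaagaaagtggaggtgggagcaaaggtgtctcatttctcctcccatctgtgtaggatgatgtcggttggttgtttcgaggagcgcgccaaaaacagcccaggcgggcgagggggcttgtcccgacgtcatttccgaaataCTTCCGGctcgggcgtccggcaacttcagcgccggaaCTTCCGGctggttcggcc
Cox8b, chr7:140900397-140900696: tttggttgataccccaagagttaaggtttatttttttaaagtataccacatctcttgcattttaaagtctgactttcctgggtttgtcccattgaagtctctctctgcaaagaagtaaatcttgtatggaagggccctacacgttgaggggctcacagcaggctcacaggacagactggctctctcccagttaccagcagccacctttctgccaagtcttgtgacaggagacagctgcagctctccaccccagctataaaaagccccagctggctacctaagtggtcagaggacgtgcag
Atp5g2, chr15:102670998-102671297: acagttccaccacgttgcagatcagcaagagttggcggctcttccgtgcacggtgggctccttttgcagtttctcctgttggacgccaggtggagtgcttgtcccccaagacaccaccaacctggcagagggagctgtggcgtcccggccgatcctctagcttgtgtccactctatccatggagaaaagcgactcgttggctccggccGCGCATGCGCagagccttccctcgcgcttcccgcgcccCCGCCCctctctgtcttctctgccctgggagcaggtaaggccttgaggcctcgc
Atp5j, chr16:84834927-84835226: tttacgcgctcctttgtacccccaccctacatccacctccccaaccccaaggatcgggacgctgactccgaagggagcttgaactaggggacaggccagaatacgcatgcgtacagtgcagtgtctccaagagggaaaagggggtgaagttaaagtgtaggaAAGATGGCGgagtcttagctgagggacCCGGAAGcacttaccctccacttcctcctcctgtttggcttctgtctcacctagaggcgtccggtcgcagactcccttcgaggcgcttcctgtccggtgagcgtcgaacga

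Ndufa9 and Ndufc1 each had a YY1 match, which began 29 and 22 bases after the start site. Ndufa4 and Sdha had no match to the 4 motifs, which says only that these letters are not in this window. In Atp5g2 the NRF1 motif matched on both strands in overlapping positions, beginning 42 and 41 bases before the start. Atp5j, at the first of its listed start sites, had a YY1 match 88 bases before it and an ETS match 61 bases before it.

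Members were marked more often than promoters in general in every library. With neomycin, 49 and 55 of the 96 were marked (51.0% and 57.3%), against 74 and 54 (77.1% and 56.2%) without. The background over all 21631 promoters was 35.3% and 34.0% with neomycin and 47.6% and 36.7% without. The neomycin libraries thus lay on either side of untreated replicate 2, and untreated replicate 1, with the longest list of peaks, stood above the other 3. The mean share of members was 54.2% with neomycin and 66.7% without, a difference of -12.5 percentage points that did not pass a two-sided exact permutation test over libraries (p = 0.667, where 2 libraries against 2 allow no p below 1 in 3). Over all promoters the difference was -7.52 points, at that smallest p. The excess of members over all promoters averaged 19.5 points with neomycin and 24.5 without, a difference of -4.98 points (exact permutation p = 0.667) that became 0.198 when the lists were cut to equal length.

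**Figure D1:**
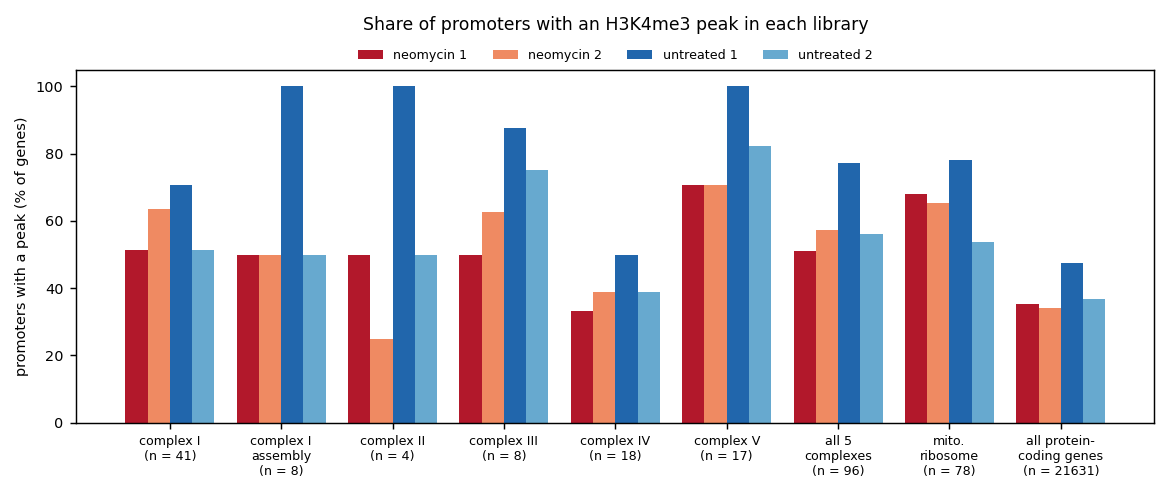
Percentage of promoters with an H3K4me3 peak within 1 kb of the start site, by complex, for all 96 members, for 78 genes of the mitochondrial ribosome and for all protein-coding genes; each bar is 1 library, neomycin in red shades and untreated in blue shades. The neomycin bars of complex V stand at 70.6% and 70.6%, against untreated bars at 100.0% and 82.4%, and those of complex IV at 33.3% and 38.9%, against 50.0% and 38.9%.

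Of the 96 members, 21 were marked in all 4 libraries (21.9%, against 16.8% of all promoters), 37 in 3, 14 in 2, 9 in 1 and 15 in none (15.6%, against 44.4%). Of the 81 members marked in some library, 25.9% were marked in all 4, against 30.2% of all promoters marked in some library. The largest class of incomplete patterns lacked a peak in neomycin replicate 1 alone, with 16 members. A further 11 lacked one in neomycin replicate 2 alone, 8 in untreated replicate 2 alone and 2 in untreated replicate 1 alone. Genes of the mitochondrial ribosome, another nuclear-encoded set of mitochondrial proteins, had 24 of 78 promoters in all 4 libraries, with shares of 67.9% and 65.4% with neomycin and 78.2% and 53.8% without. For housekeeping genes such as these, a missing peak means only that none was called.

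**Figure D2:**
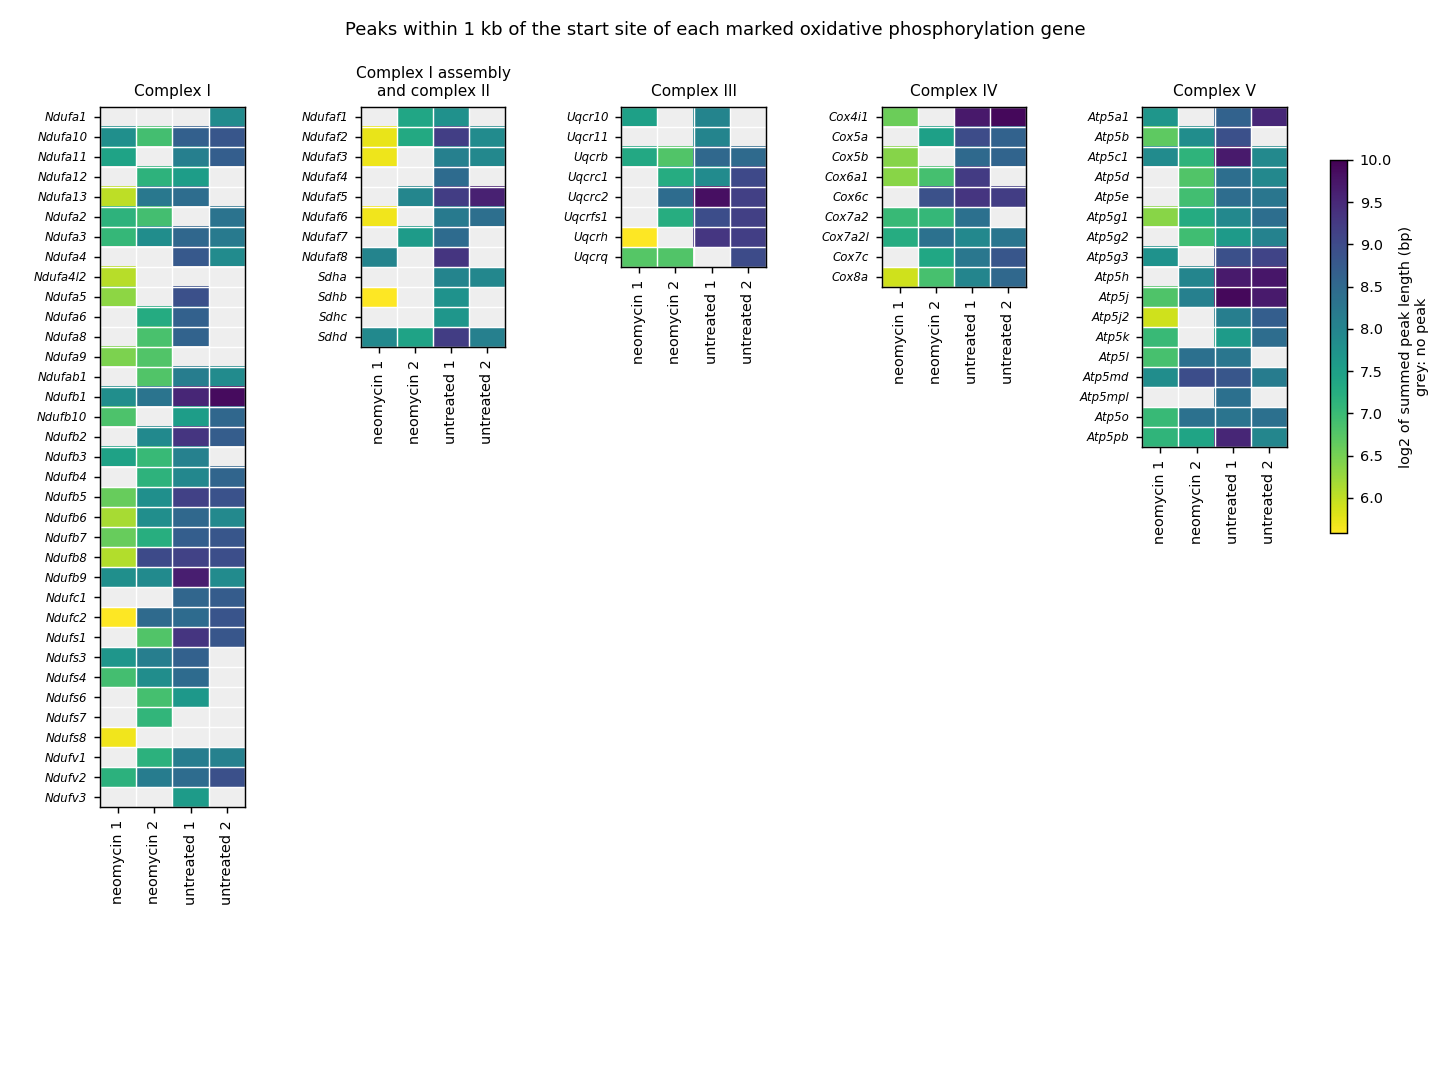
Summed length of the peaks within 1 kb of the start site of each of the 81 members with a peak in some library (rows, by complex) in each library (columns), as log2 of bp; grey cells have no peak. The 21 rows with colour in all 4 columns include 10 of complex I and 6 of complex V, and all 17 rows of complex V have a peak in untreated replicate 1.

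One member was marked in both neomycin libraries and neither untreated library (1.42% of all promoters and 2.56% of those marked anywhere had this pattern), and 3 had the reverse (4.71% and 8.46%). Ndufa9, an accessory subunit of complex I that binds NADPH, had peaks of 88 and 110 bp with neomycin and none in the untreated libraries, whose nearest peaks lay 90.1 and 90.1 kb away. The gene lies on chromosome 6 from 126821863 to 126849144. Its peak in neomycin replicate 2 was of the shortest length in that list, 110 bp, and the fold enrichment given by the authors for its peaks was 4.43 and 6.54. With lists of equal length Ndufa9 was marked in 1 neomycin library.

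Among the untreated-only members, Ndufa4, on chromosome 6 from 11900372 to 11907450, had no peak with neomycin and 438 and 234 bp without. The 234 bp are the shortest length in the list of untreated replicate 2, and the start site lies within 1 kb of that of Phf14, so these peaks cannot be assigned to one of the genes. With lists of equal length Ndufa4 was marked in 1 untreated library. Ndufc1, a small accessory subunit of the membrane arm of complex I, on chromosome 3 from 51405479 to 51408955, had no peak with neomycin and 372 and 419 bp without, and no other start site lay within 1 kb. Sdha, the flavin-bearing subunit of complex II that oxidises succinate, on chromosome 13 from 74322255 to 74350240, had no peak with neomycin and 258 and 248 bp without. Its start lies within 1 kb of that of Ccdc127. With a -log10 q of at least 10, Ndufc1 alone of these 4 genes kept its pattern: Ndufa9 and Ndufa4 had no peak left, and Sdha had a peak in 1 untreated library. These 4 genes were picked for a pattern that parts the groups, so their values are a description with no test.

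In complex I, 10 of 41 genes were marked in all 4 libraries: Ndufa3, Ndufa10, Ndufb1, Ndufb5, Ndufb6, Ndufb7, Ndufb8, Ndufb9, Ndufc2 and Ndufv2. The 6 Ndufb genes and Ndufc2 encode accessory subunits of the membrane arm, and Ndufv2 is the only core subunit among the 10. Ndufb1 had the longest mean summed length over the 4 libraries among these 10, with 226 and 316 bp with neomycin and 740 and 937 bp without. Its start lies within 1 kb of that of Cpsf2. Ndufb6 had the shortest mean, with 72 and 227 bp with neomycin and 364 and 243 bp without. The order differed in single libraries, as with Ndufb8 at 517 bp in neomycin replicate 2 and Ndufc2 at 48 bp in neomycin replicate 1.

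The core subunits of complex I that carry electrons from NADH to ubiquinone were marked unevenly. Ndufv2, an iron-sulphur subunit beside the NADH site, had 144 and 283 bp with neomycin and 347 and 485 bp without. Ndufv1, which binds NADH and its flavin, had 0 and 144 bp with neomycin and 280 and 267 bp without. Ndufs1, the largest iron-sulphur subunit, had 0 and 110 bp with neomycin and 641 and 450 bp without. Ndufs3 had 206 and 278 bp with neomycin and 394 and 0 bp without. Ndufs7, an iron-sulphur subunit near the ubiquinone site, had a peak of 136 bp in neomycin replicate 2 alone, and Ndufs8, another, one of 51 bp in neomycin replicate 1 alone. Of these, Ndufv2 alone was marked in all 4 libraries, and the others lacked a peak in 1 to 3 of them.

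The 8 assembly factors were all marked in untreated replicate 1, and 4 of 8 in each of the other libraries. Ndufaf2, a chaperone of late assembly, was the one marked in all 4, with 53 and 159 bp with neomycin and 577 and 234 bp without, and shares its promoter with Ercc8.

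In complex II, 2 and 1 of the 4 genes were marked with neomycin and 4 and 2 without. Sdhd, a membrane anchor, had 241 and 173 bp with neomycin and 584 and 270 bp without, and its start is within 1 kb of that of Timm8b. Sdhb, the iron-sulphur subunit, had 48 and 0 bp with neomycin and 215 and 0 bp without. Sdhc, the other anchor, had a peak in untreated replicate 1 alone, of 205 bp.

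In complex III, each of the 8 genes had a peak in some library and 1 in all 4. That gene was Uqcrb, a small subunit near the ubiquinone site, with 162 and 110 bp with neomycin and 366 and 356 bp without. A start of Gm10767 lies within 1 kb. The core proteins Uqcrc1 and Uqcrc2 and the Rieske iron-sulphur protein Uqcrfs1 shared 1 pattern, with no peak in neomycin replicate 1 and a peak in the other 3 libraries. Uqcrc1 had 154 bp in neomycin replicate 2 and 233 and 520 bp in the untreated libraries. Its neomycin peak lay 0.881 kb from the start and reached past the edge of the window. Uqcrc2 had 348 bp in neomycin replicate 2 and 904 and 576 bp in the untreated libraries.

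In complex IV, 9 of 18 genes were marked, each in 3 or 4 libraries, and 9 were unmarked. The 7 isoforms known from a restricted set of tissues, Cox4i2 of lung, Cox6a2, Cox7a1 and Cox8b of heart and skeletal muscle, and Cox6b2, Cox7b2 and Cox8c of testis, had no peak in any library. Of their 6 widely expressed counterparts, Cox4i1, Cox6a1, Cox7a2 and Cox8a were marked in 3 or 4 libraries, while Cox6b1 and Cox7b were marked in none. Cox8a, on chromosome 19 from 7215158 to 7217616, had 60 and 117 bp with neomycin and 253 and 362 bp without. Cox8b, on chromosome 7 from 140898942 to 140900446, had no peak within 8.28 kb in any library. The promoter of Cox8b printed above holds 2 CpG dinucleotides, against 19 in that of Cox8a.

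Cox4i1, the regulatory subunit, had 96 and 0 bp with neomycin and 832 and 959 bp without. Cox5a and Cox5b were each marked in 1 neomycin library and in both untreated libraries. Cox5a had 0 and 179 bp with neomycin and 501 and 393 bp without, and Cox5b had 84 and 0 bp with neomycin and 361 and 384 bp without. Cox7a2l, a factor that joins complexes III and IV into supercomplexes, was marked in all 4, with 154 and 327 bp with neomycin and 244 and 310 bp without. At Ndufa4l2, a relative of Ndufa4 induced by hypoxia, the window held a peak of 67 bp in neomycin replicate 1 alone. No start site was listed for Ndufa4l2, so its window sat at the gene end chosen by peaks, within 1 kb of a start of Stac3. Inside the gene lay 2 and 0 peaks with neomycin and 1 and 1 without. The nearest untreated peaks were 2.585 and 2.696 kb from the chosen end, so the window does not part the groups for the gene as a whole.

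Complex V had the largest share of genes marked in all 4 libraries (35.3%), with 6 of 17: Atp5c1, Atp5g1, Atp5j, Atp5md, Atp5o and Atp5pb. All 17 were marked in some library, as were all genes of complexes II and III and all assembly factors. Atp5a1 and Atp5b encode the alpha and beta subunits of the catalytic head. Atp5a1 had 205 and 0 bp with neomycin and 393 and 725 bp without, and Atp5b had 103 and 228 bp with neomycin and 483 and 0 bp without. Atp5c1, the gamma subunit that turns within the head, had 233 and 140 bp with neomycin and 822 and 242 bp without, and shares its promoter with Kin. The stalk subunit Atp5j had 111 and 271 bp with neomycin and 964 and 820 bp without. The start of Atp5j lies within 1 kb of that of Gabpa, which encodes a regulator of this gene family.

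The 3 genes for subunit c, Atp5g1, Atp5g2 and Atp5g3, encode the same mature peptide of the membrane ring and differed in their pattern. Atp5g1 had 83 and 155 bp with neomycin and 245 and 337 bp without. Atp5g2 had 0 and 123 bp with neomycin and 194 and 263 bp without. Atp5g3 had 216 and 0 bp with neomycin and 486 and 547 bp without. All 3 were marked in both untreated libraries, and 2 lacked a peak in 1 neomycin library each.

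The unmarked members were 6 of complex I and 9 of complex IV. Those of complex I included Ndufa7, Ndufb11, Ndufb4b, Ndufb4c and Ndufs5, whose nearest peaks were at least 6.24 kb away. On the X chromosome, Ndufb11 and Cox7b had no peak, and Ndufa1, whose start is within 1 kb of that of Rnf113a1, had 1 of 234 bp in untreated replicate 2 alone. Of all 966 promoters on X, 2.9% and 2.07% had a peak with neomycin and 11.7% and 6.63% in untreated cells. For the 20665 on the autosomes the shares were 36.8% and 35.5% with neomycin and 49.3% and 38.1% in untreated cells.

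At promoters marked in all 4 libraries, the summed length of the peaks was compared. As deposited, both neomycin libraries lay below both untreated libraries at 15 of the 21 members (71.4%) and at 79.9% of all 3638 such promoters. The median was 134 and 227 bp at the members with neomycin, against 410 and 337 bp without. Over all 3638 promoters it was 125 and 236 bp with neomycin and 570 and 468 bp without, so each library was centred on its own median in log2 before the test. Uncentred, the median log2 difference over all promoters was -1.59, and the directions below are relative to that shift.

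No member and no other promoter passed the test, limma's moderated comparison of neomycin with untreated at a Benjamini-Hochberg adjusted p of 0.05 over the 3638 promoters (0.0% called in each direction, smallest adjusted p 0.222, with 353 promoters at an unadjusted p below 0.05). Without neomycin replicate 1 the test called 50 promoters longer and 90 shorter, and without neomycin replicate 2 it called 172 and 251, none of them members. Over the 21 members the median log2 difference was 0.21, against -0.01 over all promoters, and it ranged from -0.77 to 1.50, with 14 above 0 and 7 below. Centred, both neomycin libraries lay above both untreated libraries at 5 members (23.8%, against 19.3% of all promoters) and below them at 2 (9.52%, against 21.0%).

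Atp5md, a small membrane subunit of complex V, had the largest difference and is named for that value. It had 228 and 494 bp with neomycin and 452 and 282 bp without, a centred log2 difference of 1.50 (SE 0.60, limma adjusted p = 0.4), which was -0.09 without centring. Its start lies within 1 kb of that of Pdcd11, so these peaks cannot be assigned to one of the genes. Cox7a2l followed, with 1.29 (SE 0.61, limma adjusted p = 0.483), and -0.29 without centring. Atp5j had the most negative, -0.77 (SE 0.60, limma adjusted p = 0.737), and with no centring it was -2.36 and the 1 member called (adjusted p = 0.0269). For the other members named by rule, Sdhd had 0.63, Ndufv2 0.57, Ndufb6 0.37, Atp5c1 0.28, Atp5g1 0.25, Uqcrb 0.15, Ndufb1 -0.05, Cox8a -0.26 and Ndufaf2 -0.41, with limma adjusted p from 0.803 to 0.987. Of these 9, all but Ndufb1, Cox8a and Ndufaf2 turned negative without centring, and these 3 were negative in both.

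**Figure D3:**
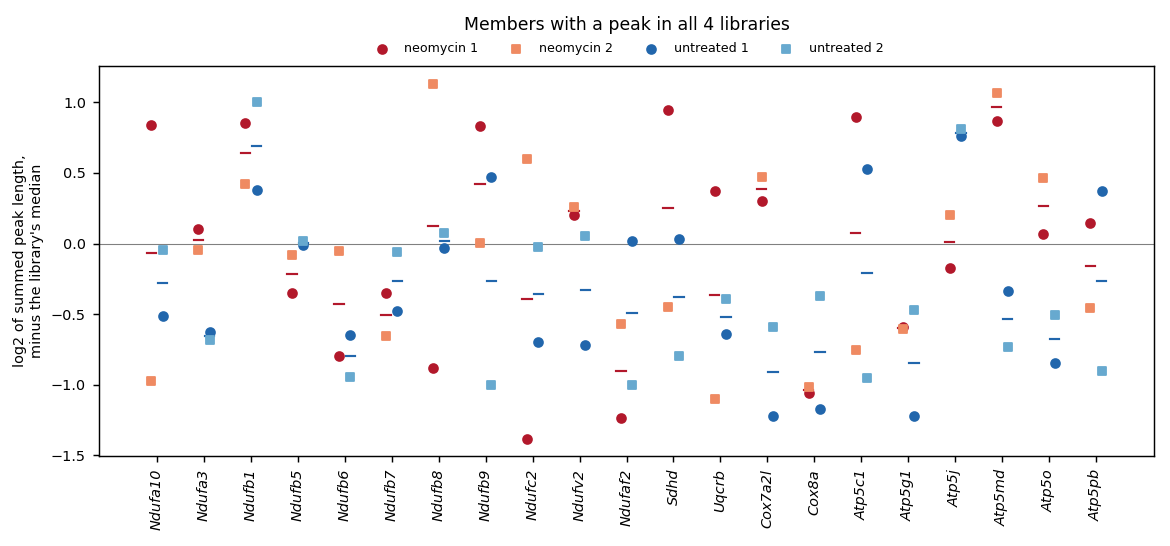
Summed peak length at the 21 members marked in all 4 libraries, as log2 of bp minus the library's median over 3638 promoters; points are libraries (neomycin red and orange, left, untreated blue, right) and short lines are group means. Atp5md and Cox7a2l have both neomycin points above both untreated points, Atp5j has both below, and at 14 of the 21 genes the groups overlap.

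Several lengths sat at the floor of their list: 3 and 6 members were at the shortest peak length with neomycin and 2 and 5 without. Strong peaks differed in number, too. With a -log10 q of at least 10, members with a peak numbered 0 and 4 with neomycin and 35 and 15 without, against 30 and 240 of all promoters with neomycin and 5432 and 2052 without. By rank within its own list, the best peak of a marked member stood at a median percentile of 64.8 and 74.8 with neomycin and 57.3 and 61.5 without, where all marked promoters stood at 53.0 and 57.9 with neomycin and 63.9 and 61.5 without. Members thus ranked above the marked promoters at large in both neomycin lists, and below or level with them in the untreated lists. Many peaks share a rank, so small differences in signal move it far. In neomycin replicate 2, Ndufa3 at percentile 57.9 had a summit pileup of 11, and Ndufb7 at 74.8 had 12.

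The summit of the strongest peak lay on the gene side of the start at most members. At members with a listed start, its median position was 248 and 136 bp inside the gene with neomycin and 182 and 228.5 bp without, and 73.2% and 72.9% of summits lay inside with neomycin against 85.9% and 81.8% without. Over all marked promoters with a listed start, the median was 207 and 160 bp with neomycin and 194 and 215 bp without. The share inside was 75.4% and 74.8% with neomycin and 80.8% and 81.3% without, so the members lay near this background.

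**Figure D4:**
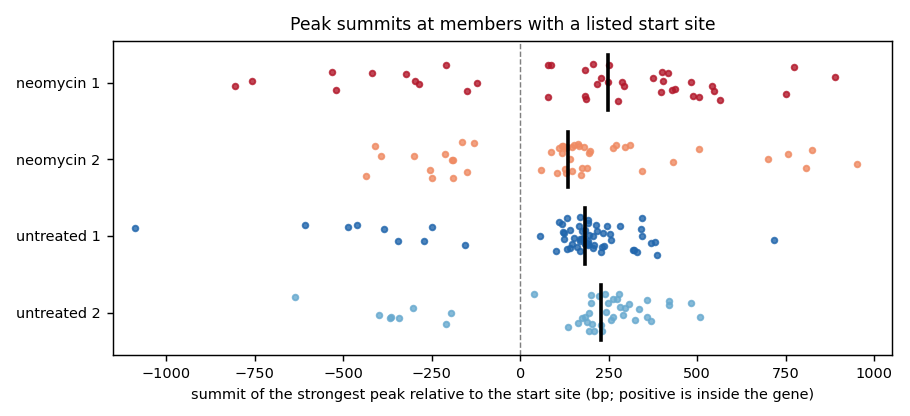
Position of the summit of the strongest peak relative to the start site, in bp with positive values inside the gene, at members with a listed start; each point is a member, each row a library (neomycin above, untreated below) and black bars are medians, which lie at 248, 136, 182 and 228.5 bp from top to bottom.

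Other features of the promoters were set beside those of all genes, as descriptions with no test. Start sites of 78 members were listed, 83 in all, and held a median of 20 CpG dinucleotides in 300 bases, against 13 in 21045 start sites of all protein-coding genes. The NRF1 motif occurred in 12.0% of them against 2.37%, the ETS motif in 22.9% against 11.7%, the YY1 motif in 9.64% against 1.84% and the Sp motif in 43.4% against 46.7%. All 10 member sites with the NRF1 motif belonged to genes marked in 1 to 3 libraries (10 of 51 sites), with 0 of 21 at genes marked in all 4 and 0 of 11 at genes marked in none. Over all genes the motif was in 3.75% of sites of genes marked in all 4, 3.4% in 1 to 3 and 0.681% in none. There, too, it was rarest at unmarked genes, but it was not rarer at genes marked in all 4. The contrast among members rests on 10 sites and was not tested. Sites of members marked in none held a median of 10 CpG, against 22 in those marked in all 4. The ranges overlapped, from 2 at Cox8b to 29 at Ndufa7 for none, and from 8 at Ndufc2 to 43 at Atp5j for all 4. Another start site lay within 1 kb for 35 members, of which 28.6% were marked in all 4 libraries and 8.57% in none. Without one, 18.0% of 61 members were marked in all 4 and 19.7% in none, while over all promoters the shares in all 4 were 36.4% with another start and 14.4% without, and those in none 9.59% and 48.7%.

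**Figure D5:**
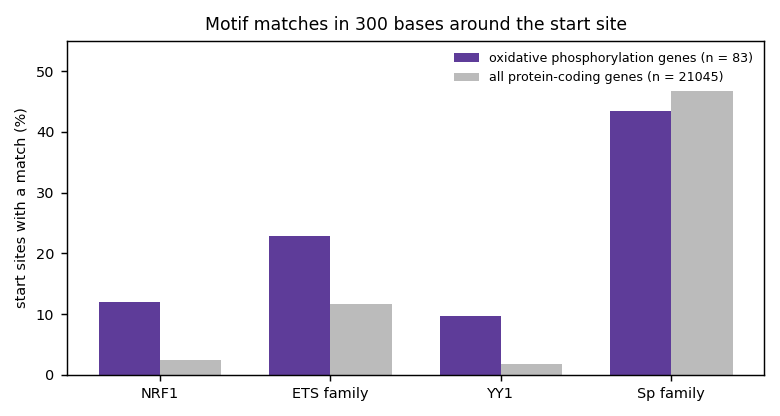
Percentage of start sites with at least 1 match on either strand to each of 4 motifs in the 300 bases from 250 before to 50 after the start, for 83 start sites of oxidative phosphorylation genes (purple) and 21045 of all protein-coding genes (grey). The NRF1, ETS and YY1 motifs are more frequent among the members, and the Sp motif is at 43.4% against 46.7%.

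In the related pathways, genes of 1 group alone are read against 1.42% neomycin only and 4.71% untreated only over all promoters. Of 42 assembly factors outside the naming rule and electron carriers, the neomycin libraries marked 69.0% and 66.7% and the untreated libraries 78.6% and 69.0%, with 16 genes in all 4. Atpaf1, an assembly factor of the ATP synthase head, was the 1 untreated-only gene of that list, and none was neomycin only. Of 16 regulators of mitochondrial gene expression, the shares were 75.0% and 81.2% with neomycin and 68.8% and 56.2% in untreated cells, with 7 in all 4 and none of 1 group alone. Of 17 genes of the tricarboxylic acid cycle and pyruvate dehydrogenase, they were 70.6% and 70.6% with neomycin and 88.2% and 70.6% in untreated cells, with none of 1 group alone. Of 16 glycolysis genes, peaks lay at 62.5% and 56.2% with neomycin and at 75.0% and 50.0% in untreated cells, and Tpi1, triose phosphate isomerase, was untreated only. The regulators were the one of these 4 lists with higher shares in both neomycin libraries than in both untreated libraries, and that difference was not tested. A share counts peaks of any length. At each of the 7 regulators marked in all 4 libraries, both neomycin lengths lay below both untreated lengths, as deposited. That ordering held at 79.9% of all promoters marked in all 4. The 7 include Gabpa, whose start lies within 1 kb of that of Atp5j. Its lengths equal those of Atp5j in each library, so the same peaks were counted for the regulators and for complex V.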

How the data were processed

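The 4 lists of peaks used hold 1 library each, labelled as H3K4me3, which means separate calling. The submitters' processing notes name mm10 as the build and CASAVA 1.4, Bowtie2, MACS2 and deepTools as tools, with no parameters, and do not say how input libraries entered the calls. Per the file headers, each deposited peak has a length in bp, a pileup signal at its summit and a fold enrichment (a ratio). The deposited lists also hold the -log10 of the p-value and q-value of each peak. The authors' peak caller computed these values. They were used to describe, rank or filter peaks within a list.

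Start sites came from RefSeq's promoter table of GRCm38.p6, which lists 78 of the 96 members and 79.9% of all protein-coding genes. For the other 18 members the end of the gene with peaks in more libraries was taken, a choice that used the peaks. Lengths at promoters marked in all 4 libraries were compared with limma 3.58.1 in R 4.3.3, on log2 of bp centred on the library median, and shares with exact permutation tests. Counting and plotting were done in Python 3.11.15 (numpy 2.4.6, pandas 2.3.3, matplotlib 3.10.9). The fit and the assignment of peaks were tested on simulated data. Samples were grouped by their labels. Replicate numbers were not taken as pairs. The members, gene lists and tests were chosen with earlier results of these data known.

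Named members were those marked in 1 group alone, those unmarked, those with the longest and shortest mean length in each complex among members marked in all 4 libraries, isoform pairs and core subunits. Atp5md and other members outside that rule were named after their values were seen. Alternatives changed the window, the peak threshold, list length, scaling, length measure, filter, replicate block and libraries used. A gene that the rule names is not reported here.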

Additional observations from a re-analysis of the deposited data

How the results depend on the processing

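Counts of marked members depended on how a peak was counted. Members marked in all 4 libraries (21) numbered 0 with a -log10 q of at least 10, 3 with at least 200 bp of the window covered, 0 with 500 bp, and 10 of the 60 members whose window overlaps no other. Neomycin-only members (1) numbered 0 under the first 3 of these settings. Untreated-only members (3) numbered 11, 25 and 8 under them, 1 among non-overlapping windows and 5 with a 0.5 kb window. Over all promoters the untreated-only count (1018) was 1457, 3915, 1940, 908 and 1380 under the same settings, so it also rose in all but the non-overlapping windows. Leaving out 1 library gave 23 to 37, 2 to 9 and 4 to 19 for the 3 counts, since fewer libraries have to meet the rule. With lists of equal length the excess of members changed by 0.198 points in place of -4.98.

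In the length fit, no centring gave 1139 promoters shorter with neomycin, 1 of them a member, and a median over members of -1.375; the longest peak in place of the sum gave 1 and 0.077. Leaving out a library gave 0 to 172 longer and 0 to 251 shorter promoters, with 50 and 90 without neomycin replicate 1 and 172 and 251 without neomycin replicate 2. The median over members then ran from -0.033 to 0.349, and 0 members were called. With replicate numbers as a block, 0 promoters were called, the smallest adjusted p was 0.0707 and the median over members stayed at 0.214. Deviations of same-numbered libraries correlated at -0.019, and the labels do not say what a number marks, so the numbers were not used as pairs. With a -log10 q of at least 10 the fit could not be made, as 0 promoters were marked in all 4.

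Without centring, differences turned negative at Atp5md (-0.089), Cox7a2l (-0.293), Sdhd (-0.960), Ndufv2 (-1.023), Ndufb6 (-1.218), Atp5c1 (-1.304), Atp5g1 (-1.341) and Uqcrb (-1.435). With the longest peak, Ndufaf2 was 0.077 and Ndufv2 -0.010. With promoters marked in at least 1 library, Cox8a was 0.093. Leaving out 1 library changed the sign at 7 named members, whose differences ran from -0.549 to 1.128 at Atp5c1, -0.138 to 0.526 at Atp5g1, -0.678 to 0.043 at Cox8a, -1.015 to 0.083 at Ndufaf2, -0.377 to 0.183 at Ndufb1, -0.033 to 1.344 at Sdhd and -0.549 to 0.909 at Uqcrb. In those fits the lone library of a group is assumed to vary like the others. The cause of these changes was not tested.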

Other observations

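The mitochondrial genome, which encodes further subunits of complexes I, III, IV and V, also carried called peaks. They numbered 1 and 0 with neomycin and 10 and 7 in the untreated lists, and covered 109 and 0 bp against 10372 and 10519 bp. The highest fold enrichment that the authors give for them was 2.84 in neomycin replicate 1 and 8.92 and 6.58 in the untreated lists. Mitochondrial DNA has no histones, and these peaks were not used in any comparison.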
